A study of Drosophila melanogaster with 3 samples.

Results

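Brains of Drosophila melanogaster larvae homozygous for the dBRWD3 allele PX2 were compared with brains of heterozygous larvae across 9263 genes, chosen from the 15229 rows of the deposited table. The dBRWD3 mutant library was made from dBRWD3PX2/PX2 animals and the control library from dBRWD3PX2/+ animals, so the control also carried the allele, on 1 chromosome only. Both came from larvae of the third instar raised at 25 °C, and brains were dissected for total RNA sequencing after ribosomal RNA removal. The labels list 1 library for each genotype. The sources used here do not give the number of brains in a library, the sexes of the animals or the effect of PX2 on the gene. Genes were kept when a row named a gene, when it was the row with the highest mean among rows of the same name, and when it reached 1 RPKM (reads scaled by transcript length and library size) in at least 1 of these libraries. Rows for small RNAs, ribosomal RNA and mitochondrial genes were left out.

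BRWD3 proteins carry WD repeats and bromodomains, which bind acetylated histones. In Drosophila the protein has been described as a substrate receptor of a cullin 4 ubiquitin ligase and as a regulator of the histone variant H3.3, and in humans changes in BRWD3 are a known cause of X-linked intellectual disability. The larval brain holds neuroblasts, the stem cells that divide asymmetrically to give ganglion mother cells, which in turn divide into neurons. It also holds glia that wrap cell bodies and axons or seal the surface of the brain as the blood-brain barrier, and it is attached to the ring gland, the source of the moulting hormone ecdysone.

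The ratio used throughout is the log2 of the dBRWD3 mutant value over the control value, with 1 RPKM added to each, so a positive ratio means higher in the mutant. All statements of 2-fold or 1.5-fold refer to this ratio, which for low genes is smaller than the fold of the RPKM values themselves. Because each genotype has a single library, replicate spread is unknown, no test was run, and every difference is between these libraries. Among all 9263 genes, 581 differed by 2-fold or more (6.27%), with 250 higher in the mutant (2.7%) and 331 lower (3.57%). At 1.5-fold the shares were 10.7% higher and 9.35% lower, and 54.4% of genes had a ratio above 0. The median ratio was 0.05, and 90% of genes lay between -0.84 and 0.82. The deposited values of both libraries keep no read numbers, but the smallest steps in the table are close to what about 22 reads per kilobase and RPKM in the mutant and 29 in control would give. A gene near 1 RPKM with a transcript under 1 kb therefore rests on few reads. In the control column 51.0% of values above 0 had more than 6 digits, nearly all ending in 5, against 0 in the mutant column, and whether control values are means of more than 1 measurement is unknown.

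BRWD3 itself (3R, 20144740 to 20159036 in dm3, the build of all positions given here as the table's loci) had 43.2 RPKM in the mutant library and 29.1 RPKM in control, so its RNA was not lower in the mutant. This RNA level does not check the genotype labels. Of the genes kept, 3509 have the start and end of another gene kept, so a position can cover more than 1 gene.

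**Figure D1:**
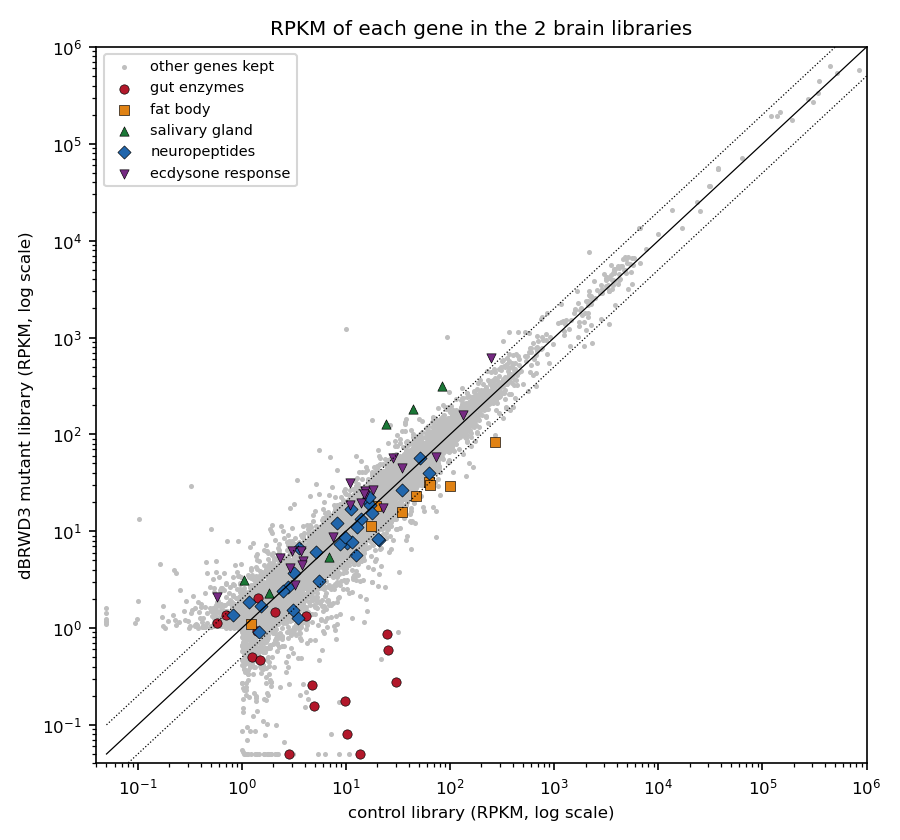
RPKM of each gene in the dBRWD3 mutant library (vertical, log scale) against the control library (horizontal, log scale), 1 library each; coloured symbols mark 5 gene lists, the solid line equal values and the dotted lines 2-fold differences. Values under 0.05 RPKM are drawn at 0.05. Most gut enzyme genes and the fat body genes lie below the line, 3 glue genes lie above it, and most other genes lie between the dotted lines.

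The stem cell and early neuron markers of the brain all lay within 2-fold between the libraries. Among neuroblast genes, dpn, a transcription factor that keeps neuroblasts self-renewing, had 16.5 RPKM in the mutant and 14.04 RPKM in control. Its fellow neuroblast factors wor and ase had 18.4 and 3.70 RPKM in the mutant, against 16.0 and 3.03 RPKM in control. For mira, the scaffold that carries fate determinants into the daughter cell, the values were 43.9 RPKM in the mutant and 37.3 RPKM in control. The adaptor insc, which orients the division, was the exception among the defining markers, with 5.10 RPKM in the mutant and 6.78 RPKM in control. Of the 14 neuroblast genes kept, 0 were 2-fold apart and 8 had a ratio above 0, against 54.4% of all genes. Their median was 0.21, against 0.05 over all genes, and the lowest ratio was -0.50. The largest ratio, 0.63, belonged to grh, a late neuroblast factor, with 19.8 RPKM in the mutant and 12.4 RPKM in control. In the ganglion mother cell list, pros, which ends self-renewal, had 9.99 RPKM in the mutant and 8.08 RPKM in control, whereas nerfin-1, which keeps young neurons from reverting, had 8.43 RPKM in the mutant and 11.1 RPKM in control. Of the 6 genes kept in that list, 5 had a ratio above 0. The largest ratio, 0.87, was that of fne, given below with the neuronal genes.

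Optic lobe patterning genes split in both directions, within 2-fold in all 22 cases. The medulla progenitor gene Vsx1, which acts in the central part of the optic lobe primordium, stood lower, with 7.93 RPKM in the mutant and 13.1 RPKM in control. Rx, used in the dorsal and ventral tips of the same primordium, had 2.46 RPKM in the mutant and 4.27 RPKM in control. The neighbouring sloppy-paired genes differed in direction: slp2 had 4.42 RPKM in the mutant and 2.31 RPKM in control, while slp1 had 1.42 RPKM in the mutant and 2.69 RPKM in control. In contrast, dac and eya, nuclear factors of the lamina and of photoreceptors, stood higher, with 32.8 and 43.7 RPKM in the mutant against 22.5 and 31.0 RPKM in control.

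General neuronal genes showed no common direction. The RNA-binding protein gene elav, the classical marker of neurons, had 32.1 RPKM in the mutant and 21.2 RPKM in control, and its relative fne had 9.004 RPKM in the mutant and 4.46 RPKM in control. Genes of the presynaptic active zone and vesicles pointed both ways. The scaffold gene brp had 7.48 RPKM in the mutant and 10.4 RPKM in control, and the calcium sensor Syt1 had 2.09 RPKM in the mutant and 3.50 RPKM in control. The vesicle fusion gene nSyb, with 17.6 RPKM in the mutant and 16.7 RPKM in control, was almost level. Csp, a vesicle chaperone gene, and Syn, the synapsin gene, stood higher, with 15.5 and 4.27 RPKM in the mutant against 8.88 and 2.42 RPKM in control. Of the 22 neuronal genes kept, the single 2-fold difference was in Nrg, the adhesion molecule neuroglian, with 12.9 RPKM in the mutant and 41.5 RPKM in control (ratio -1.62). Another adhesion gene, CadN, lay just within 2-fold, with 22.5 RPKM in the mutant and 44.4 RPKM in control. The list median was 0.09.

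Genes that define a neuron's transmitter stood lower in the mutant library in 10 of 11 rows, with each ratio short of 2-fold once 1 RPKM was added. Over all genes 45.6% had a ratio below 0, and the median of these rows was -0.46. Gad1, which makes GABA, had 3.98 RPKM in the mutant and 8.21 RPKM in control. The row Cha,VAChT, which joins choline acetyltransferase and the vesicular acetylcholine transporter in 1 locus, had 8.01 RPKM in the mutant and 12.6 RPKM in control, and the choline transporter gene CG7708 had 2.19 RPKM in the mutant and 4.64 RPKM in control. The glutamatergic marker VGlut had 1.48 RPKM in the mutant and 2.41 RPKM in control, and Tdc2, of tyramine and octopamine neurons, had 2.00 RPKM in the mutant and 2.65 RPKM in control. The monoamine transporter gene Vmat had 2.14 RPKM in the mutant and 4.12 RPKM in control. Hdc, which makes histamine, was the exception, with 1.59 RPKM in the mutant and 1.17 RPKM in control. The dopamine marker ple, the serotonin transporter gene SerT and Tbh were under 1 RPKM in both libraries and also had ratios below 0. Most of these genes were below 10 RPKM, and in bulk RNA fewer neurons of a type and less RNA per neuron cannot be told apart. Exons of other genes cover 69.5% of the exonic bases of CG7708 and 26.2% of those of Vmat. Transcript length is known for 8 of the rows, whose median was -0.42 as it stands and -0.45 after the median of genes of similar length was subtracted.

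**Figure D2:**
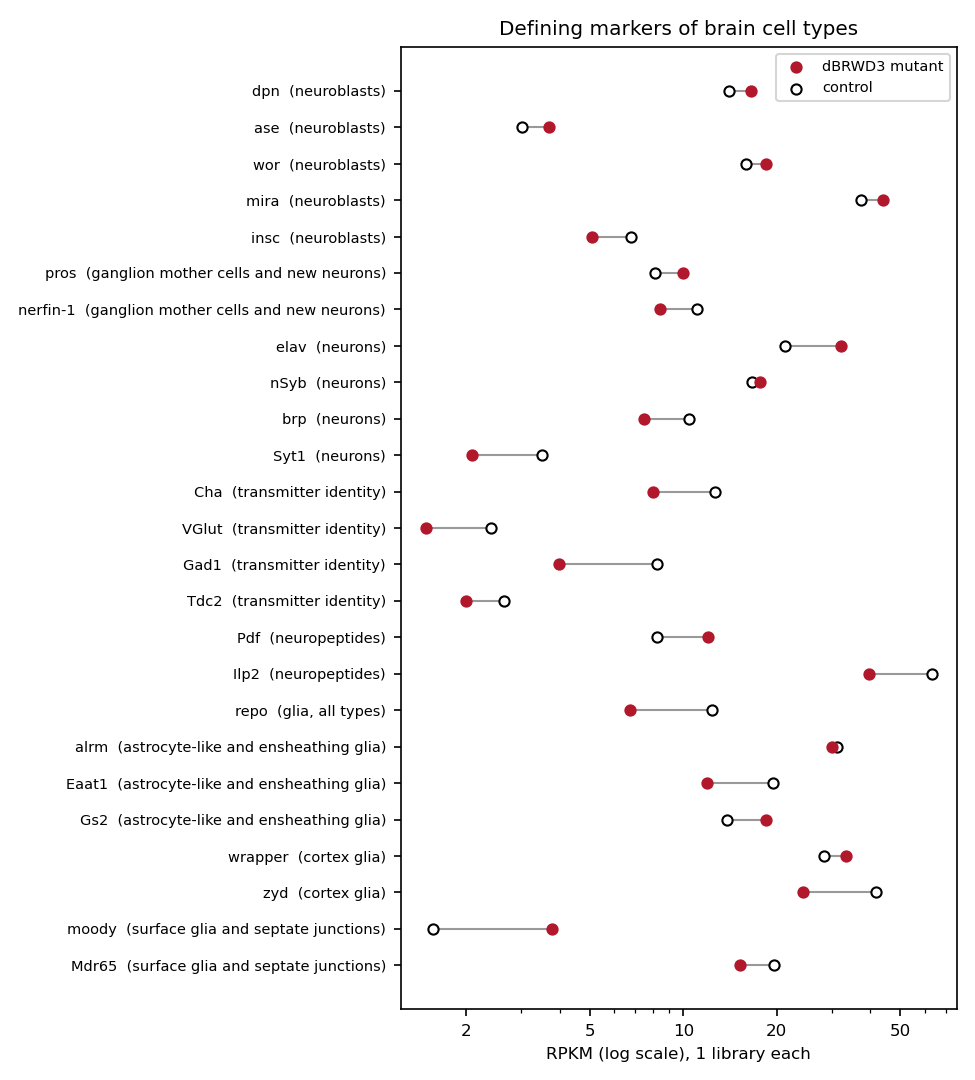
RPKM (log scale) of the defining markers of brain cell types in the dBRWD3 mutant library (filled) and the control library (open), 1 library each, with the list in parentheses. Neuroblast markers other than insc were slightly higher in the mutant, the 4 transmitter markers shown were all lower, and glial markers went both ways; Cha shares its row with VAChT and moody with CG4325.

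Neuropeptide genes pointed both ways. Of 30 kept, 12 had a ratio above 0, 3 were 2-fold lower or more, and 0 were 2-fold higher. Over all genes these shares were 54.4%, 3.57% and 2.7%. The lowest ratios belonged to hug, npf and Dsk, which act in feeding and satiety circuits, at -1.27, -1.19 and -1.02. The gene hug shares its locus with Octbeta3R, an octopamine receptor gene that was also lower, at 0.450 RPKM in the mutant and 2.66 RPKM in control. At the other end, Proct, the gene for the muscle-active peptide proctolin, had 6.71 RPKM in the mutant and 3.56 RPKM in control. Nplp1 had 16.9 RPKM in the mutant and 11.2 RPKM in control, and Pdf, the clock neuron peptide, had 12.01 RPKM in the mutant and 8.22 RPKM in control. Among the peptides of moulting behaviour, Eh and Ccap stood lower, with 1.26 and 1.53 RPKM in the mutant against 3.43 and 3.06 RPKM in control, while burs and pburs, which encode the subunits of bursicon, stood higher, with 1.37 and 1.85 RPKM in the mutant against 0.817 and 1.17 RPKM in control. Insulin-like peptide genes of the same neurosecretory cells differed in size. Ilp2 had 39.7 RPKM in the mutant and 63.0 RPKM in control, and Ilp5 had 7.70 RPKM in the mutant and 11.4 RPKM in control. Ilp3 was nearly level, with 13.3 RPKM in the mutant and 14.04 RPKM in control. Enzymes that mature peptides were mostly higher by small amounts. Phm, which amidates peptides, had 72.6 RPKM in the mutant and 51.7 RPKM in control, and the convertase gene amon had 15.7 RPKM in the mutant and 11.4 RPKM in control. The convertase chaperone gene 7B2 had 126 RPKM in the mutant and 177 RPKM in control.

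Among mushroom body genes, the memory centre of the fly brain, CG10251 was 2-fold apart. CG10251, now named prt, a vesicular transporter of mushroom body neurons, had 1.16 RPKM in the mutant and 3.91 RPKM in control. The other 11 genes kept lay within 2-fold, among them the cAMP genes dnc (3.35 RPKM in the mutant, 5.01 RPKM in control) and rut (8.34 RPKM in the mutant and 9.32 RPKM in control).

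Glial genes pointed both ways, also within a glial type. The pan-glial transcription factor gene repo had 6.73 RPKM in the mutant and 12.4 RPKM in control, while loco, a regulator of G protein signalling in glia, had 35.5 RPKM in the mutant and 24.1 RPKM in control. Among genes of glia that contact synapses, Eaat1, which clears glutamate, had 11.9 RPKM in the mutant and 19.5 RPKM in control. Also lower were e, the ebony gene, whose enzyme conjugates dopamine and histamine with beta-alanine (3.54 RPKM in the mutant and 11.8 RPKM in control, ratio -1.49), and CG9657, a solute carrier (0.292 RPKM in the mutant and 1.88 RPKM in control, ratio -1.16). These were the 2 of 8 genes of the astrocyte-like and ensheathing list that were 2-fold lower. Glutamine synthetase Gs2 ran against them, with 18.4 RPKM in the mutant and 13.8 RPKM in control, and CG11910, now named alrm, was level at 30.2 RPKM in the mutant and 31.2 RPKM in control. The cortex glia genes were split between wrapper (33.4 RPKM in the mutant, 28.5 RPKM in control) and CG2893, now named zyd, a potassium-dependent sodium and calcium exchanger (24.4 RPKM in the mutant and 41.6 RPKM in control).

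Genes of the surface glia and of septate junctions, the seals of the blood-brain barrier, stood higher in 11 of 14 cases, with a median of 0.30. Of all genes 54.4% had a ratio above 0. Lac, an immunoglobulin-domain protein of the junction, was 2-fold higher, with 44.5 RPKM in the mutant and 19.7 RPKM in control. Gli, which marks tricellular junctions, had 34.9 RPKM in the mutant and 18.3 RPKM in control. The row CG4325,moody, which holds the G protein-coupled receptor of barrier glia, had 3.79 RPKM in the mutant and 1.56 RPKM in control. Mdr65, the drug pump of the same cells, did not follow, with 15.2 RPKM in the mutant and 19.6 RPKM in control. Septate junctions are also made by other epithelia, and the disc, trachea and salivary gland lists given next bear on that, although their part in this result was not tested.

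**Figure D3:**
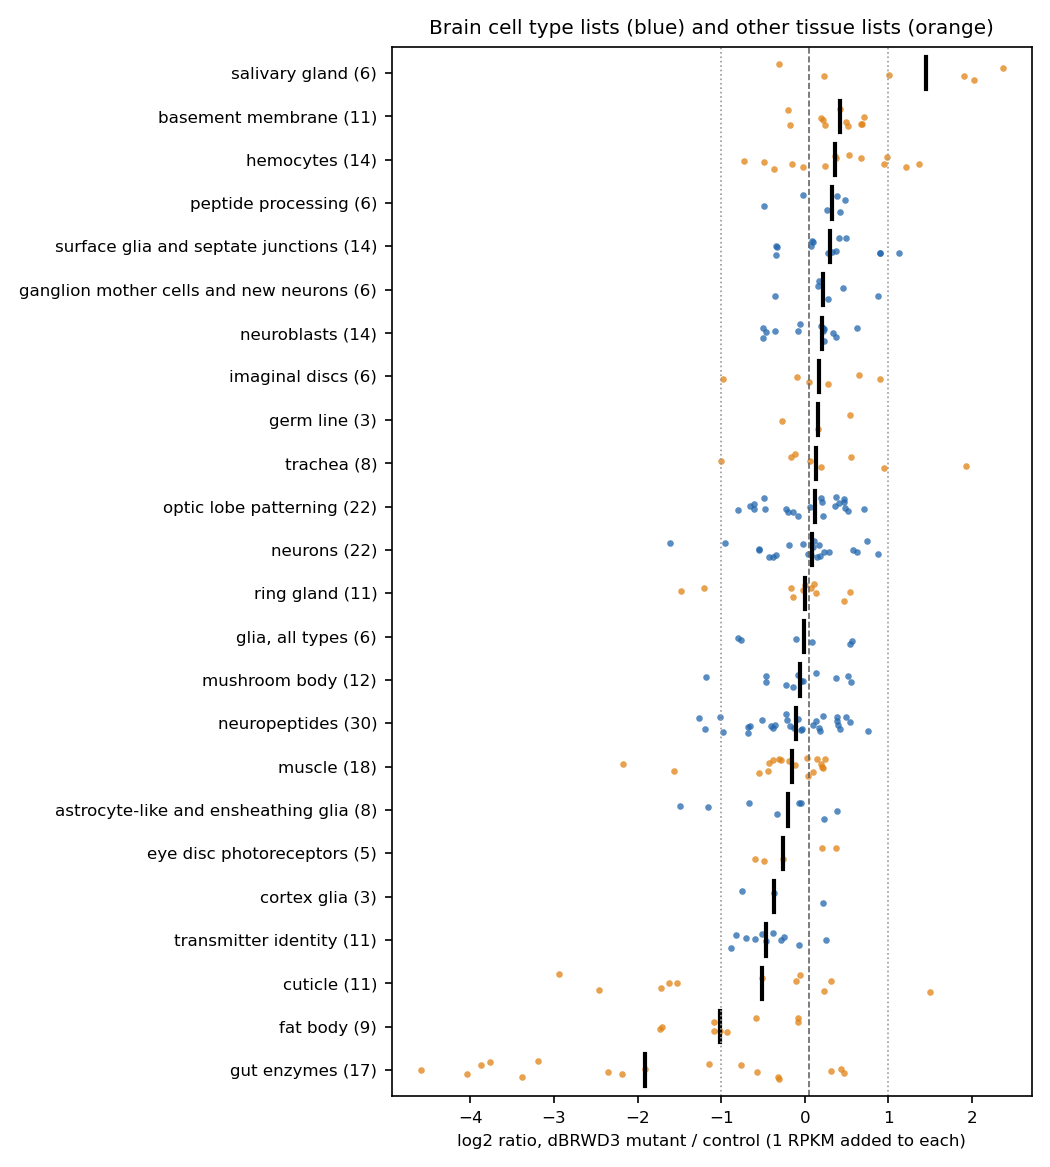
Log2 ratio (dBRWD3 mutant over control, 1 RPKM added) of each gene kept in the brain cell type lists (blue) and the other tissue lists (orange), with the number of genes in parentheses; black bars are list medians, the dashed line is the median of all genes and the dotted lines mark 2-fold. The gut enzyme and fat body medians, -1.91 and -1.01, lie at the low end and the salivary gland median, 1.46, at the high end.

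A further 12 lists hold genes typical of tissues outside the brain, and which tissue their RNA came from was not tested. The 17 gut enzyme rows kept had a summed level of 11.6 RPKM in the mutant and 139 RPKM in control. Of these rows, 10 were at least 2-fold lower in the mutant, against 3.57% of all genes. Besides the trypsin and Jon65A genes, the lysozyme genes LysD (0.157 RPKM in the mutant, 4.89 RPKM in control), LysE (0.0198 RPKM in the mutant and 2.82 RPKM in control) and LysB (1.31 RPKM in the mutant and 4.12 RPKM in control) were among them. So was the protease gene Jon25Bii, with 0.259 RPKM in the mutant and 4.73 RPKM in control. These genes belong to families of near-identical copies, so their individual values are uncertain. All of the 10 except LysB were under 1 RPKM in the mutant, so they passed the filter through control alone. Another 10 listed genes were under 1 RPKM in both libraries. With no filter the list median was -0.32, against -1.91 with it. The 9 fat body genes kept had a summed level of 244 RPKM in the mutant and 618 RPKM in control. Of these 9, 5 were at least 2-fold lower and 0 had a ratio above 0, against 3.57% and 54.4% of all genes. The 5 were Fbp1, Lsp2, Lsp1alpha, Lsp1beta and Lsp1gamma, the receptor and the larval storage proteins, while the lipid transfer genes Mtp (18.2 RPKM in the mutant and 19.3 RPKM in control) and CG15828 (1.09 RPKM in the mutant and 1.21 RPKM in control) were level. An antisense gene covers 84.6% of the exonic bases of Lsp2, and how strand was handled is unknown.

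Of 11 cuticle genes kept, 5 were at least 2-fold lower, against 3.57% of all genes, and 4 of the 5 sit together. Lcp1, Lcp2, Lcp3 and Lcp4, larval cuticle proteins that are neighbours on 2R between 4318138 and 4325908, had 3.56, 1.19, 1.25 and 8.77 RPKM in the mutant, against 13.02, 6.22, 11.4 and 73.7 RPKM in control. Lcp9 had 3.37 RPKM in the mutant and 11.6 RPKM in control. TwdlE, another cuticle gene, ran the other way, with 5.76 RPKM in the mutant and 1.39 RPKM in control. Exons of lectin-28C, which was also higher in the mutant, cover 71.9% of the exonic bases of TwdlE. Chitin synthase kkv, the enzyme common to cuticle and trachea, was level at 29.4 RPKM in the mutant and 30.5 RPKM in control. In tracheal genes, the chitin-binding obst-A (9.96 RPKM in the mutant, 1.88 RPKM in control) and Gasp (21.6 RPKM in the mutant and 10.7 RPKM in control) were higher, whereas the master regulator trh (1.81 RPKM in the mutant and 1.45 RPKM in control) differed little. The epithelial gene uif lay just inside 2-fold lower, with 16.1 RPKM in the mutant and 33.2 RPKM in control.

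Salivary gland genes rested on 3 glue genes. Sgs5, Sgs7 and Sgs8 were each at least 2-fold higher (ratios 2.37, 1.91 and 2.03), as was CrebA, a regulator of secretion, with 3.13 RPKM in the mutant and 1.05 RPKM in control. Sgs3 had 5.40 RPKM in the mutant and 6.89 RPKM in control, and Sgs1 and Sgs4 were under 1 RPKM in both. Fork head, fkh, another regulator of the gland, had 2.30 RPKM in the mutant and 1.81 RPKM in control.

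Blood cell genes were also unequal. He (2L, 13970528 to 13972947, a locus it shares with nimB5), a hemocyte surface protein, had 40.4 RPKM in the mutant and 15.1 RPKM in control, and the phagocytic receptor eater had 74.0 RPKM in the mutant and 38.0 RPKM in control. Of the 14 genes kept, He and crq, a scavenger receptor with 24.5 RPKM in the mutant and 9.97 RPKM in control, were at least 2-fold higher. Hml and NimC1, markers of the same plasmatocytes, were level, with 29.4 and 7.02 RPKM in the mutant against 29.9 and 7.94 RPKM in control. The crystal cell enzyme genes proPO-A1 and CG8193, prophenoloxidases, stood lower, with 92.0 and 43.6 RPKM in the mutant against 119 and 72.7 RPKM in control. Other genes of the blood cell list stood higher within 2-fold, with ratios of 0.98 for ush, 0.67 for Pxn, 0.52 for srp and 0.37 for lz. Of the 14 blood cell genes, 9 had a ratio above 0 and 5 below, and the median was 0.37. Basement membrane genes, which hemocytes, fat body and glia express, were higher in 9 of 11 cases with a median of 0.43. The share higher over all genes was 54.4%. The largest ratios of that list were those of LanB2, a laminin subunit, and the collagen IV gene Cg25C. LanB2 had 52.5 RPKM in the mutant and 31.6 RPKM in control, and Cg25C had 82.3 RPKM in the mutant and 50.9 RPKM in control.

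In the ring gland, the cytochrome P450 genes of ecdysone synthesis were within 2-fold, and a pair of genes that handle sterols were lower. The hydroxylase gene phm had 253 RPKM in the mutant and 279 RPKM in control, sad had 207 RPKM in the mutant and 192 RPKM in control, and dib had 16.7 RPKM in the mutant and 11.2 RPKM in control. Neverland, nvd, which takes the first step from cholesterol, had 1.95 RPKM in the mutant and 5.83 RPKM in control. Npc1a, which moves sterols out of endosomes, had 10.5 RPKM in the mutant and 31.0 RPKM in control. Those were the 2 of 11 genes that were 2-fold apart, and the median of 0.00 took either sign with the scaling. Outside the ring gland list, the sterol carriers Npc2a (460 RPKM in the mutant, 309 RPKM in control) and Start1 (58.5 RPKM in the mutant and 36.2 RPKM in control) stood higher. For jhamt, which makes juvenile hormone, the values were 14.6 RPKM in the mutant and 14.9 RPKM in control.

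Muscle genes were mostly low and level, with Mhc, the myosin heavy chain gene, at 5.93 RPKM in the mutant and 7.99 RPKM in control. The exceptions were Mlp60A, a muscle LIM protein, with 0.944 RPKM in the mutant and 7.77 RPKM in control, and Act57B, the larval muscle actin, with 2.53 RPKM in the mutant and 9.43 RPKM in control. The imaginal disc genes vg, nub and rn were at or under 4.77 RPKM in both libraries, and the germ line genes vas and nos were under 0.1 RPKM. Of the disc genes kept, hth stood highest in ratio (16.2 RPKM in the mutant, 8.22 RPKM in control) and nub lowest (1.94 RPKM in the mutant and 4.77 RPKM in control). The roX RNAs of male dosage compensation, which follow the share of males, pointed in opposite directions. For roX1 the values were 63.7 RPKM in the mutant and 46.2 RPKM in control, and roX2 had 264 RPKM in the mutant and 367 RPKM in control.

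All 17 signalling lists had a median above that of all genes, most by little, and few of their members were 2-fold apart. The smallest margin was that of Hippo, with a median of 0.052 against 0.050 over all genes. Centring on the median gene restates this comparison, and scaling to the same total moves all genes together, so neither is a separate check. The ecdysone response had the highest median, 0.57, and 11 of its 22 genes were at least 1.5-fold higher while 0 were 1.5-fold lower. Over all genes these shares were 10.7% and 9.35%. ImpE3 (31.2 RPKM in the mutant, 10.9 RPKM in control) and ImpE2 (612 RPKM in the mutant and 249 RPKM in control), secreted or membrane proteins first found as ecdysone-induced in discs, were the members past 2-fold. The early transcription factor genes Eip75B (18.6 RPKM in the mutant and 10.8 RPKM in control), Hr39 (26.0 RPKM in the mutant and 15.1 RPKM in control) and Eip74EF (6.26 RPKM in the mutant and 3.69 RPKM in control) stood higher by less. The receptor subunits split, with EcR at 17.3 RPKM in the mutant and 22.9 RPKM in control and its partner usp at 23.7 RPKM in the mutant and 15.1 RPKM in control. ImpE1, with 57.2 RPKM in the mutant and 28.1 RPKM in control, sat at the 2-fold line, just inside it.

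**Figure D4:**
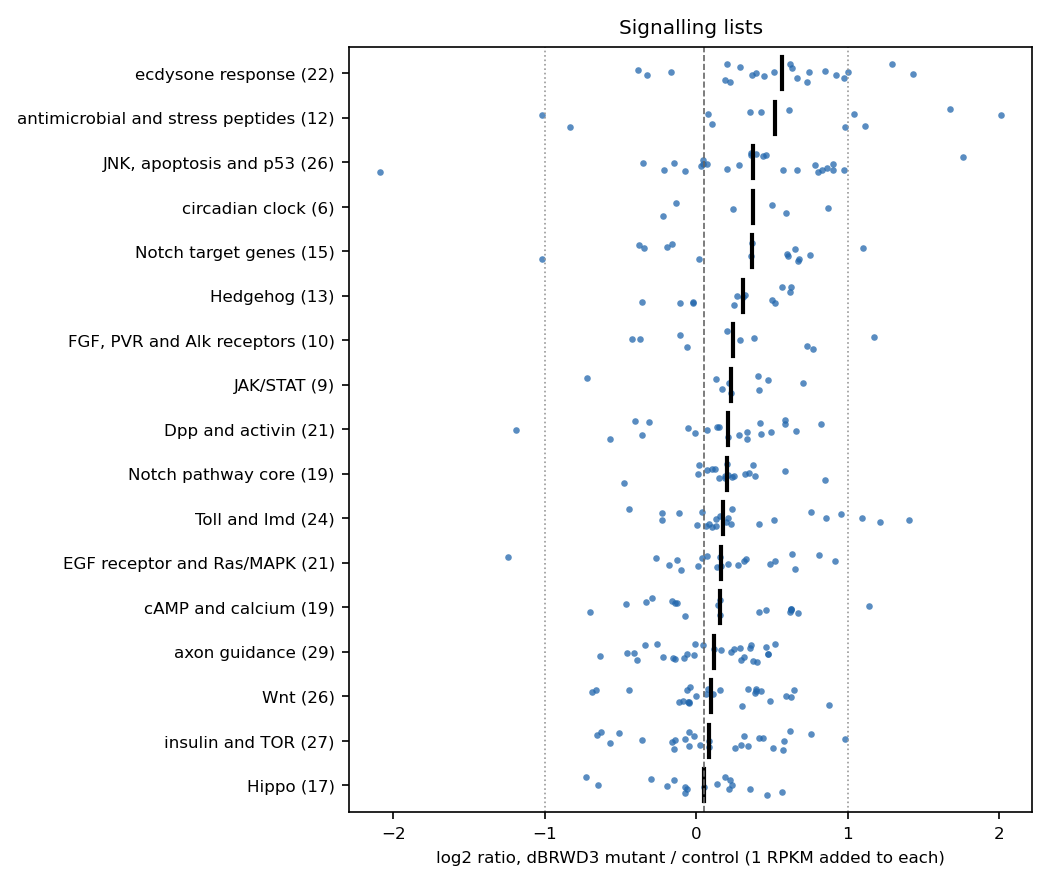
Log2 ratio (dBRWD3 mutant over control, 1 RPKM added) of each gene kept in the signalling lists, with the number of genes in parentheses; black bars are list medians, the dashed line is the median of all genes and the dotted lines mark 2-fold. List medians run between 0.05 for Hippo and 0.57 for the ecdysone response, and single genes such as egr and Gadd45 lie far from their lists.

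In Notch signalling, small positive ratios ran through the receptor machinery as well as the targets. Of 19 core pathway genes, 18 had a ratio above 0, against 54.4% of all genes, with a median of 0.20 and 0 past 2-fold. The coactivator mam had 17.4 RPKM in the mutant and 9.22 RPKM in control, and the DNA-binding partner Su(H) had 8.49 RPKM in the mutant and 6.24 RPKM in control. The receptor N was level (88.1 RPKM in the mutant and 84.0 RPKM in control), its ligand Dl stood at 29.7 RPKM in the mutant and 23.1 RPKM in control, and mib1, the ligase that activates ligands, was lower, with 22.6 RPKM in the mutant and 31.9 RPKM in control. Among the target genes kept, 10 of 15 had a ratio above 0 and 7 were at least 1.5-fold higher, against 54.4% and 10.7% of all genes. Of these 7, the rows HLHm3,HLHmgamma, HLHmbeta, m1, m2 and malpha share 1 locus (3R, 21825579 to 21848852). The 5 with ratios below 0 were E(spl), HLHm5, Ocho, Hey and Tom. The row HLHm3,HLHmgamma of Enhancer of split repressors was 2-fold higher, with 149 RPKM in the mutant and 68.8 RPKM in control. Tom, a Bearded family inhibitor of neuralized, ran the other way, with 85.7 RPKM in the mutant and 175 RPKM in control, while its relative Brd had 5.31 RPKM in the mutant and 2.76 RPKM in control.

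Stress kinase, cell death and p53 genes were mostly higher. A ratio above 0 was found for 21 of 26, with 9 higher by 1.5-fold or more, 1 lower, and a median of 0.38. Over all genes 54.4% had a ratio above 0, 10.7% were higher by 1.5-fold or more and 9.35% lower. Gadd45 (2R, 3136667 to 3138160), a stress-inducible activator upstream of stress kinases, had 128 RPKM in the mutant and 37.0 RPKM in control. The paired leucine zipper factor genes Xrp1 and CG6272, now named Irbp18, had 48.0 and 31.0 RPKM in the mutant, against 23.9 and 17.01 RPKM in control. Jra, the Jun gene, had 118 RPKM in the mutant and 67.2 RPKM in control. The TNF receptor genes CG10176, now grnd, and wgn were higher as well (18.6 and 4.85 RPKM in the mutant, 9.78 and 2.68 RPKM in control), whereas their ligand gene egr had 4.38 RPKM in the mutant and 21.8 RPKM in control. The gene egr holds small nucleolar RNA genes within it, whose reads its value may include, which was not tested. Upstream death genes hid (listed as W), grim and rpr were at 2.13 RPKM or below in both libraries. The death gene skl stood higher, with 4.45 RPKM in the mutant and 2.16 RPKM in control. The gene puc, a feedback target of the Jun kinase, was level at 3.69 RPKM in the mutant and 3.94 RPKM in control.

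In immune signalling, 3 of 24 Toll and Imd genes were past 2-fold, each of them higher, where 2.7% of all genes were 2-fold higher. They were pirk, a brake on Imd signalling (6.18 RPKM in the mutant, 1.72 RPKM in control), PGRP-SA, a Toll pathway recognition protein (7.89 RPKM in the mutant and 2.84 RPKM in control), and dl, the dorsal transcription factor (18.8 RPKM in the mutant and 8.25 RPKM in control). The Toll ligand spz had 5.28 RPKM in the mutant and 2.47 RPKM in control, and Rel, the factor of the Imd branch, had 67.4 RPKM in the mutant and 39.5 RPKM in control. The genes Tl (22.1 RPKM in the mutant and 20.6 RPKM in control), imd (22.4 RPKM in the mutant and 19.5 RPKM in control) and cact (69.6 RPKM in the mutant and 63.5 RPKM in control) were near level. The adaptor gene Fadd (row BG4) was not, with 18.8 RPKM in the mutant and 9.22 RPKM in control. Antimicrobial and stress peptides were near the detection limit, with 12 of 24 under 1 RPKM in both. Drs, the antifungal peptide drosomycin, had 8.96 RPKM in the mutant and 3.85 RPKM in control, CecA1 had 3.93 RPKM in the mutant and 0.224 RPKM in control, while IM10 (row CG33470,IM10) had 2.49 RPKM in the mutant and 0.616 RPKM in control and IM33 (row CG16712) had 3.66 RPKM in the mutant and 0.463 RPKM in control. CecA2 ran opposite, with 0.578 RPKM in the mutant and 2.19 RPKM in control. Hemocytes and fat body express many of these genes, and their marker lists stood in opposite directions; their part in the immune values was not tested.

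Growth factor pathways differed in single genes. In the EGF receptor and Ras list, 16 of 21 genes had a ratio above 0, against 54.4% of all genes. The gene edl, an antagonist of the ETS repressor, had 14.02 RPKM in the mutant and 6.96 RPKM in control. For the phosphatase gene csw the values were 6.88 RPKM in the mutant and 3.50 RPKM in control. The scaffold gene cnk was the member past 2-fold, at 5.40 RPKM in the mutant and 14.2 RPKM in control. Pvf2, a PDGF and VEGF related ligand, was 2-fold higher (8.55 RPKM in the mutant and 3.24 RPKM in control), and its receptor Pvr (22.4 RPKM in the mutant and 12.8 RPKM in control) and the related ligand Pvf1 (1.93 RPKM in the mutant and 0.770 RPKM in control) were higher too, while Pvf3 had 4.33 RPKM in the mutant and 6.18 RPKM in control. For the Dpp and activin list the 2-fold difference was in brk, a repressor of Dpp targets, with 0.181 RPKM in the mutant and 1.70 RPKM in control. The Dpp antagonist sog stood at 5.32 RPKM in the mutant and 2.57 RPKM in control and the ligand dpp at 4.35 RPKM in the mutant and 3.40 RPKM in control.

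The Wnt, Hedgehog, JAK/STAT, Hippo, insulin and axon guidance lists held 0 members past 2-fold. In the Wnt list, dsh, the cytoplasmic hub of the pathway, had 16.2 RPKM in the mutant and 8.38 RPKM in control, and the ligand wg had 8.96 RPKM in the mutant and 5.36 RPKM in control. The Hedgehog transcription factor ci had 18.8 RPKM in the mutant and 11.9 RPKM in control. JAK/STAT had its largest ratio in the receptor dome, which was lower, with 10.5 RPKM in the mutant and 17.9 RPKM in control. In the Hippo list the scaffold sav stood at 5.44 RPKM in the mutant and 9.67 RPKM in control. All 29 guidance genes were within 2-fold, and comm, which controls midline crossing, had the largest ratio, -0.64, with 6.69 RPKM in the mutant and 10.9 RPKM in control.

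In the insulin and TOR list the 4 largest ratios belonged to scyl and chrb, higher, and to Ilp2 and Tsc1, lower. The TOR inhibitors scyl and chrb had 32.9 and 8.89 RPKM in the mutant, against 16.2 and 4.87 RPKM in control, and foxo, the transcription factor restrained by insulin, had 6.44 RPKM in the mutant and 3.86 RPKM in control. The receptor InR had 4.35 RPKM in the mutant and 6.94 RPKM in control. Thor, a FOXO and TOR target that restrains translation, was level at 8.07 RPKM in the mutant and 8.39 RPKM in control. Ilp6, an insulin-like peptide of the fat body and glia, had 2.15 RPKM in the mutant and 1.12 RPKM in control.

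In the calcium and cAMP list 1 of 19 genes was past 2-fold, near the 6.27% of all genes that were 2-fold apart. That gene was Cam, which encodes calmodulin, with 83.5 RPKM in the mutant and 37.4 RPKM in control. Its effector CaMKII, a kinase of synaptic plasticity, had 79.2 RPKM in the mutant and 51.1 RPKM in control. The calcium release channel Itp-r83A stood lower, at 5.67 RPKM in the mutant and 9.86 RPKM in control. In the circadian list, vri, a clock repressor, had 26.4 RPKM in the mutant and 13.98 RPKM in control, cwo had 10.4 RPKM in the mutant and 6.56 RPKM in control and per had 3.997 RPKM in the mutant and 2.53 RPKM in control, while Clk and tim were under 1 RPKM in both libraries.

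Genes of sugar storage and the pentose phosphate pathway stood mostly lower in the mutant library, and respiratory chain genes mostly higher. Of 12 genes of glycogen, trehalose and gluconeogenesis, 11 had a ratio below 0, against 45.6% of all genes, and the median was -0.46. The neighbouring genes Pepck and CG10924 on 2R, both phosphoenolpyruvate carboxykinases, were 2-fold lower, with 1.69 and 1.47 RPKM in the mutant against 5.91 and 4.13 RPKM in control. UGP, which makes UDP-glucose for glycogen, had 19.5 RPKM in the mutant and 33.3 RPKM in control, and Pgm had 39.8 RPKM in the mutant and 60.8 RPKM in control. In the pentose phosphate list, 5 of 7 rows were lower, with the transketolase gene CG8036 at 105 RPKM in the mutant and 183 RPKM in control; that gene holds tRNA genes within it. Fat body, where several of these enzymes are abundant, had lower marker levels in the same library, and its part in these values was not tested.

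**Figure D5:**
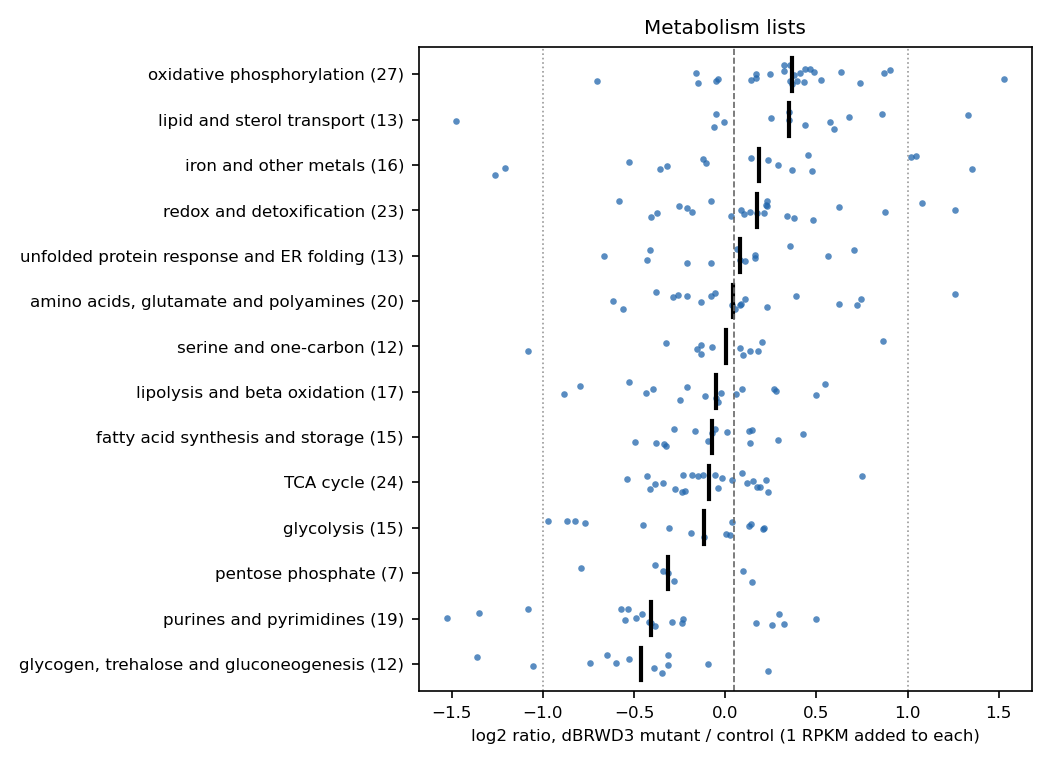
Log2 ratio (dBRWD3 mutant over control, 1 RPKM added) of each gene kept in the metabolism lists, with the number of genes in parentheses; black bars are list medians, the dashed line is the median of all genes and the dotted lines mark 2-fold. Oxidative phosphorylation (median 0.36) and lipid and sterol transport (0.35) lie at the high end, and glycogen, trehalose and gluconeogenesis (-0.46) and purines and pyrimidines (-0.41) at the low end.

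Glycolysis was uneven along the pathway, with 0 of 15 genes past 2-fold and a median of -0.11. The rate-setting kinase Pfk had 33.8 RPKM in the mutant and 67.3 RPKM in control, and at the last step PyK had 167 RPKM in the mutant and 297 RPKM in control. Gapdh1 and Gapdh2, which encode the same activity, split, with 189 and 781 RPKM in the mutant against 346 and 675 RPKM in control. Eno was level at 773 RPKM in the mutant and 760 RPKM in control, and so was ImpL3, the lactate dehydrogenase gene, at 17.4 RPKM in the mutant and 15.7 RPKM in control. In the TCA cycle, 9 of 24 genes had a ratio above 0, against 54.4% of all genes, and all 24 lay within 2-fold. Citrate synthase, kdn, was the highest of them in ratio, at 8.62 RPKM in the mutant and 4.73 RPKM in control, while Acon, the next enzyme, had 51.4 RPKM in the mutant and 68.9 RPKM in control.

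Of 27 respiratory chain and mitochondrial carrier genes kept, 22 had a ratio above 0, against 54.4% of all genes, and the median was 0.36. The single member past 2-fold was sun, the epsilon subunit of ATP synthase, with 109 RPKM in the mutant and 37.1 RPKM in control. Also higher were CG11015 of cytochrome c oxidase (96.0 RPKM in the mutant and 52.0 RPKM in control) and ox of complex III (281 RPKM in the mutant and 168 RPKM in control). The catalytic ATP synthase gene ATPsyn-beta ran against them, with 547 RPKM in the mutant and 890 RPKM in control, and its partner blw had 265 RPKM in the mutant and 296 RPKM in control. The median transcript of this list was 0.95 kb long. Across all genes with transcripts under 1 kb the median ratio was 0.14, against 0.04 for those of 4 kb or more, and with the length class subtracted the list median was 0.29.

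Of 19 purine and pyrimidine genes kept, which include enzymes of synthesis and of breakdown, 5 had a ratio above 0, and 3 were at least 2-fold lower. Over all genes these shares were 54.4% and 3.57%. The purine enzyme gene ade3 (2L, 7014860 to 7023940) had 29.4 RPKM in the mutant and 76.5 RPKM in control. The neighbouring 5′-nucleotidase genes CG30104 and veil had 1.56 and 0.963 RPKM in the mutant, against 6.39 and 3.15 RPKM in control; exons of another gene cover 100% of those of veil. The ribonucleotide reductase subunits RnrL and RnrS, which supply DNA synthesis, had 49.7 and 52.8 RPKM in the mutant against 68.6 and 74.5 RPKM in control. In one-carbon metabolism, CG3011, the serine hydroxymethyltransferase gene, had 62.4 RPKM in the mutant and 133 RPKM in control, whereas aay, the last enzyme of serine synthesis, had 15.3 RPKM in the mutant and 7.92 RPKM in control. The median of that list was 0.00, and it took either sign with the scaling.

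Of 20 genes of amino acid, glutamate and polyamine metabolism kept, 4 were higher by 1.5-fold or more and 1 lower. Gs1, the mitochondrial glutamine synthetase, was 2-fold higher, with 80.8 RPKM in the mutant and 33.2 RPKM in control, and glutamate dehydrogenase Gdh had 149 RPKM in the mutant and 95.9 RPKM in control. CG7470, of proline synthesis, had 9.73 RPKM in the mutant and 5.50 RPKM in control, and CG13384 had 17.2 RPKM in the mutant and 9.86 RPKM in control. The median of the list was 0.04, near that of all genes, and turned below 0 when the ratios were centred. Lower on this list were v and cn, enzymes of tryptophan breakdown to eye pigment, with 0.355 and 2.86 RPKM in the mutant against 1.07 and 4.69 RPKM in control.

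Lipid synthesis and oxidation lists were close to all genes, with medians of -0.07 and -0.05 and 0 members past 2-fold. The storage lipase gene bmm had 3.05 RPKM in the mutant and 6.48 RPKM in control, and the peroxisomal oxidase gene Acox57D-p had 3.54 RPKM in the mutant and 6.88 RPKM in control. Of 13 lipid and sterol transport genes kept, 9 had a ratio above 0, against 54.4% of all genes. Karl, a lipocalin, had 75.5 RPKM in the mutant and 29.4 RPKM in control, the row CG6783,sea, which holds the fatty acid-binding protein gene fabp, had 2989.8 RPKM in the mutant and 1649 RPKM in control, and the lipoprotein receptor LpR2 had 11.6 RPKM in the mutant and 7.34 RPKM in control.

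In the redox list 2 of 23 genes were past 2-fold, both higher, where 2.7% of all genes were 2-fold higher. Gclc, the rate-limiting subunit of glutathione synthesis, had 24.8 RPKM in the mutant and 9.76 RPKM in control, and the row GstD1,GstD9 of glutathione transferases had 1559.9 RPKM in the mutant and 738 RPKM in control. Catalase, Cat, had 266 RPKM in the mutant and 145 RPKM in control. The stress regulator genes cnc and Keap1 were not higher, at 13.2 and 7.50 RPKM in the mutant against 15.5 and 9.12 RPKM in control. In the metal list, the ferritin light chain gene Fer2LCH had 73.1 RPKM in the mutant and 35.0 RPKM in control, while the heavy chain gene Fer1HCH, its partner, had 131 RPKM in the mutant and 107 RPKM in control. The metallothionein genes MtnA (232 RPKM in the mutant and 114 RPKM in control) and MtnD (7.32 RPKM in the mutant and 2.26 RPKM in control) were higher, and MtnB was listed at 0 in the mutant and had 1.40 RPKM in control. Catsup, a membrane protein of the zinc transporter family, was 2-fold lower, with 17.5 RPKM in the mutant and 41.7 RPKM in control. Genes of protein folding in the endoplasmic reticulum stayed within 2-fold, with the chaperone Hsc70-3 at 297 RPKM in the mutant and 181 RPKM in control, Xbp1 at 211 RPKM in the mutant and 142 RPKM in control, and the stress factor crc at 119 RPKM in the mutant and 189 RPKM in control.

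Among the 4925 genes with at least 10 RPKM in both libraries, which rest on more reads, 99 were higher by 2-fold or more (2.01%) and 57 lower (1.16%). Besides Arc1,CG10102, Obp56d and the glue genes, the highest of these included HmgZ (2R, 17585055 to 17591993), a high mobility group chromatin protein, with 136 RPKM in the mutant and 36.7 RPKM in control. The lectin gene lectin-28C had 124 RPKM in the mutant and 26.7 RPKM in control, and its neighbour TwdlE, whose exons it overlaps, had 5.76 RPKM in the mutant and 1.39 RPKM in control. CG3884 had 59.6 RPKM in the mutant and 12.3 RPKM in control, and its neighbour CG13321 had 17.2 RPKM in the mutant and 2.88 RPKM in control. CG8501 (144 RPKM in the mutant and 37.4 RPKM in control) and CG15347 (53.7 RPKM in the mutant and 13.9 RPKM in control), for which no role is given here, completed the set with the rows cno,dpr16 and CG1646, both of which hold small RNA genes.

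The 12 lowest of these well-measured genes were of mixed function. They included bl, an RNA-binding protein of the hnRNP K family, with 45.6 RPKM in the mutant and 167 RPKM in control, and trsn, translin, another nucleic acid-binding protein, with 12.5 RPKM in the mutant and 42.5 RPKM in control. CG3566 (17.7 RPKM in the mutant, 69.2 RPKM in control), CG32032 (16.0 RPKM in the mutant and 73.1 RPKM in control), CG8331 (37.6 RPKM in the mutant and 142 RPKM in control), CG2604 (23.4 RPKM in the mutant and 79.9 RPKM in control) and CG34166 (16.2 RPKM in the mutant and 56.1 RPKM in control) were others. The cuticle gene Cpr78E had 12.8 RPKM in the mutant and 42.9 RPKM in control. CG10570 had 12.1 RPKM in the mutant and 45.6 RPKM in control, and its neighbour CG17325 was listed at 0 and had 5.34 RPKM in control. Exons of another gene cover 100% of those of CG10570. Nrg, Fbp1 and Lsp2, described above, were the remaining 3.

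Genes past 2-fold were spread over the X and the major autosome arms, with 2.31% of genes higher on 3L at the low end and 3.12% on 2L at the high end, and lower genes between 3.12% on 3R and 4.67% on 3L. Within 1 Mb of BRWD3, 6 of 235 genes were higher (2.55%) and 5 lower (2.13%). At 1 to 5 Mb from BRWD3 on 3R, 2.7% were higher and 3.06% lower, and at 5 Mb or more 3.03% were higher and 3.31% lower. Neighbouring genes past 2-fold in the same direction formed 17 runs among the higher genes and 29 among the lower, of 4 genes at most, which was the Lcp1 to Lcp4 run.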

How the data were processed

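The authors deposited 1 table of RPKM values with a row per Cufflinks locus and a column per genotype. Per the submitters' processing notes, FastQC, Trimmomatic, TopHat2 2.0.9, Cufflinks 2.0.2 and the build dm3 were used, and the sources used here do not give settings or strand handling. Of 15229 rows, 1769 named no gene, 1 had a missing value, 101 were lower copies of a name, 234 had small RNA or mitochondrial names and 3861 were under 1 RPKM in both libraries, leaving 9263 genes, of which 444 join several genes in 1 row. Ratios were computed in Python 3.11.15 with pandas 2.3.3 as log2((dBRWD3 mutant + 1)/(control + 1)). The pseudocount makes the ratios of low genes smaller than their RPKM folds. No test was run.

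The 55 gene lists and the members described were chosen with earlier results of these data known. They hold 943 entries, with some genes in more than 1 list, of which 6 were not found by symbol and 110 were under 1 RPKM in both libraries; 38 were found by an older symbol through RefSeq names. Named genes were taken from those past 2-fold in a list, the 4 largest ratios of a list, defining markers, and the 12 highest or lowest overall or with 10 RPKM or more in both libraries, with neighbours of the last 2 sets. A few others are given for their role and were chosen after their values were seen. Transcript lengths, exon overlaps and small RNA genes within a gene come from the Ensembl 115 annotation, matched by symbol (length known for 8670 genes). That annotation is of a later build, so none of its coordinates are used. Alternatives covered the pseudocount, filter, joined rows, scaling, repeated names and the fold; corrections for transcript length and for genes holding small RNAs were added after seeing the data. Some results on single genes are not reported here.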

Additional observations from a re-analysis of the deposited data

Results flagged for a closer look

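Rows outside the comparison also differed. Of the 1649 loci with no gene name that reached 1 RPKM in either library, 457 were lower in the dBRWD3 mutant library than in control by 2-fold or more (27.7%) and 182 higher (11.0%), where the shares over all genes kept were 3.57% and 2.7%. Among the 213 small RNA and mitochondrial rows left out that reached 1 RPKM, 18 were lower by that much (8.45%) and 12 higher (5.63%). Both sets were singled out because they hold signal that the comparison does not use.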

How the results depend on the processing

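The counts of 250 higher and 331 lower genes depended on the pseudocount and on the fold: they were 421 and 543 with 0.1 RPKM, 94 and 99 with 5 RPKM, and 993 and 866 at 1.5-fold. Centring on the median ratio gave 209 and 372, and scaling to the same total 226 and 351. The gut enzyme median of -1.91 was -3.75 with a pseudocount of 0.1 RPKM, -0.64 with 5 RPKM, -0.32 with no filter and -3.82 with a filter at 5 RPKM. The salivary gland median of 1.46 was 0.0814 with no filter, because 5 of its 11 genes were under 1 RPKM, and the cuticle median of -0.51 was -1.57 with a filter at 5 RPKM. With no filter the antimicrobial peptide median of 0.52 was 0.00 and the circadian median of 0.37 was 0.02. The remaining list medians moved by less than a 1.5-fold ratio under the alternatives run. The signs of the ring gland, one-carbon, amino acid and general glia medians, all within 0.05 of 0, turned under 1 or more alternatives. No paired analysis was possible because each genotype has 1 library. Differences in genes near 1 RPKM were limited by depth.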

Other observations

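The row for 7SL RNA, the RNA of the signal recognition particle, had 13672 RPKM in the dBRWD3 mutant library and 6728 RPKM in control. Beside He, nimB5, a gene of the nimrod family that shares its locus, had 15.0 RPKM in the mutant and 6.66 RPKM in control. CG41503, a locus in the Y heterochromatin sequence of the build, had 29.2 RPKM in the mutant and 0.323 RPKM in control in the highest of its 3 rows, and 2.66 RPKM in the mutant and 1.40 RPKM in control in the next, whereas the Y-linked fertility genes kl-2, kl-3 and kl-5 were near 0 in both libraries. 7SLRNA and nimB5 were chosen after their values were seen.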
